A study of Mus musculus with 28 samples.

Results

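The variant histones of the H2A and H1 families were followed through Pre-B trans-differentiation as 8 genes, taken by their symbols from a table of 55450 annotated mouse genes. Levels are in TPM, the length-corrected share of a transcript among all transcripts of a library. H2afz and H2afv encode the H2A.Z proteins, H2afx encodes H2A.X, H2afy and H2afy2 encode the macroH2A proteins, H2afj encodes H2A.J, and H1f0 and H1fx encode linker histones. All 8 were found. The cells were C10, a mouse Pre-B cell line derived from HAFTL cells that carries a transgene of rat C/EBPα fused to the hormone-binding part of the estrogen receptor, so that β-estradiol sends the fusion protein into the nucleus. RNA was taken before induction (0h) and 1h, 12h and 48h after addition of 100 nM β-estradiol, 10 nM IL-3 and CSF-1, with 3 biological replicates at each of the 4 time points. All 12 libraries come from this single line and carry the transgene. There was no induced line without the transgene and no cytokine-only group among the samples, so the effects of C/EBPα, of the hormone and of the cytokines cannot be told apart. A promoter Capture Hi-C list of interactions, merged over 2 replicates, was given for each time point.

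Canonical H2A and H1 are made from clustered genes whose mRNA carries a stem-loop in place of a poly(A) tail and is produced while DNA is copied. Variant histones are encoded by separate genes, most of them read throughout the cell cycle, and replace the canonical proteins at chosen places. H2A.Z marks nucleosomes beside active start sites, H2A.X is phosphorylated around DNA breaks, macroH2A carries a large folded domain behind its histone part and is known from silent chromatin, H2A.J differs from canonical H2A chiefly in its tail, and H1.0, the product of H1f0, is known to collect in cells that have stopped dividing. H2afx is unusual among variant genes in that its mRNA can be made both with a stem-loop and with a poly(A) tail.

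The labelled cell types were checked against their markers. The summed level of 8 Pre-B markers lay between 293 and 333 TPM at 0h and between 26.9 and 38.4 TPM at 48h. That of 7 macrophage markers went from 1.58 to 2.07 TPM at 0h to 226 to 324 TPM at 12h and 175 to 247 TPM at 48h. Lyz2 (mean 108.9 TPM) and Cd14 (mean 46.7 TPM) made up most of the 48h sum. Adgre1 reached at most 0.29 TPM and was not tested. The 6 others were called higher at 48h, where 15.9% of all genes were. T cell markers reached at most 0.18 TPM in sum and granulocyte markers 2.87 TPM. The granulocyte sum came mainly from S100a8, which was called higher at 12h and 48h (log2 changes of 4.10 and 4.23). Mpo and S100a9, also granulocyte markers, were listed at 0 throughout. The 3 fibroblast and 4 erythroid markers were listed at 0 in all libraries. The sum of 15 proliferation genes went from 263 to 322 TPM at 0h to 77.3 to 95.2 TPM at 12h and 11.7 to 12.8 TPM at 48h. In RNA from a whole culture, fewer cells of a type and less RNA per cell cannot be told apart. A pair of rRNA loci took 70.3 to 74.2% of the TPM at 1h and 72.8 to 82.9% in the other 9 libraries, and the part of this difference in the 1h values was not tested. With TPM as deposited, the 3 induced time points in order had median log2 changes of 0.59, 0.34 and -0.18 over the 16415 genes tested. Median-of-ratios scaling, which sets the typical gene equal between libraries, brought these medians to 0.02, 0.07 and 0.07, and the scaled value is given wherever a member's call or direction depended on it.

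Promoter sequence in RefSeq (GRCm38.p6) was matched for 7 of the 8 genes; H2afx had no entry. Stretches before the start of transcription are shown for the H2A.Z pair, which fell, and for H2afj and H1f0, which rose, read 5′ to 3′ on the strand of the gene, with the letters CCAAT or their reverse complement ATTGG in capitals. H2afz (GRCm38 chr3:137864237-137864486, plus strand), H2afv (chr11:6444512-6444693, minus strand), H2afj (chr6:136807998-136808243, plus strand) and H1f0 (chr15:79027962-79028211, plus strand) read as follows.
H2afz: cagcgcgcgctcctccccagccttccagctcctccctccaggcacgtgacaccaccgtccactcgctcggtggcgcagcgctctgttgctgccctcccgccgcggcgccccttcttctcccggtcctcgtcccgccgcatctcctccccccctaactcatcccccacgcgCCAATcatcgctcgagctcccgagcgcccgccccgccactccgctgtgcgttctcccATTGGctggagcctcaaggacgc
H2afv: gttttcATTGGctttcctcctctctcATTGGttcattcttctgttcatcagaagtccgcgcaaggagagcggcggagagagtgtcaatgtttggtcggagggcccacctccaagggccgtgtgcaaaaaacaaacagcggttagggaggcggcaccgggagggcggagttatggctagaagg
H2afj: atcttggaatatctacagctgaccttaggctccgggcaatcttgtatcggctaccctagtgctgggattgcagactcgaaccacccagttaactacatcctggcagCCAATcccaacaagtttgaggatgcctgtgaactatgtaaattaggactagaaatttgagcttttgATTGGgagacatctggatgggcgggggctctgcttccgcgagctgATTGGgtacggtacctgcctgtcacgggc
H1f0: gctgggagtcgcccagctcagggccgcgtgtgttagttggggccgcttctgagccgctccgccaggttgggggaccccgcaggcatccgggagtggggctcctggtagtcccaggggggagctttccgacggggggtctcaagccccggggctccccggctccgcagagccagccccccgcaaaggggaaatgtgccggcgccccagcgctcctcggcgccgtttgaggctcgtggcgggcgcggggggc

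The 300-base window from 250 bases before to 50 bases after the RefSeq start was searched for CCAAT or ATTGG runs. It held 3 in H2afz, 4 in H2afv, 3 in H2afj and 1 in H2afy2, and 0 in H2afy, H1f0 and H1fx. For H2afy, H2afy2, H1f0 and H1fx the RefSeq start lies well apart from the GENCODE start of the gene positions given below. The H1f0 window ends at 79028261, before the GENCODE start at 79028450, and the windows of H2afy and H2afy2 also miss theirs. The counts of 0 thus hold for the RefSeq windows alone. The stretches shown stop before the annotated start, and 2 of the 3 runs of H2afz and 2 of the 4 of H2afv are seen in them. On the minus strand, that of H2afv ends at 6444512, short of the GENCODE start at 6444443. The runs of H2afv not seen may thus lie before or after that start. Among all 32851 windows of that length, 37.4% held at least 1 such run and 3.37% held 3 or more. The letters TTTGAA occurred in H2afv alone among the 7, against 17.9% of all windows. The E2F-type letters TTTCCCGC, TTTGGCGC and TTTCGCGC (1.84% of all windows on either strand), the letters AAACACA (7.18%) and the C/EBP-type letters TTGCNNAA (10.8%) did not occur in these 7 windows. A match is a description of the letters, and an absent match says nothing of binding elsewhere.

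Of the 8 genes, 6 passed the filter of a mean of 0.1 TPM and entered the limma fit of log2(TPM + 0.1), whose p-values were adjusted over all 16415 genes. At 1h, 2 of the 6 (H2afj and H1f0) were called higher than at 0h and 0 lower, where 24.1% of all genes were called higher and 1.41% lower. At an unadjusted p under 0.05 the number lower was also 0, as deposited and scaled. At 12h, 2 (H2afj and H1f0) were higher and 2 (H2afz and H2afx) lower, against 22.3% and 7.82% of all genes. At 48h, 1 (H1f0) was higher and 4 (H2afz, H2afv, H2afx and H2afy) lower, against 15.9% and 27.2%. After scaling, H1f0 alone was called at 1h (5.42% of all genes higher, 4.92% lower), H2afy joined the 2 lower genes at 12h (16% higher, 14.5% lower), and the calls at 48h were the same genes (24.5% higher, 22% lower). Every call with TPM as deposited was also beyond a log2 change of 1, a bound passed upward by 16.7% of all genes at 1h, by 17.7% at 12h (5.75% downward) and by 13.5% at 48h (23.1% downward). H2afz and H2afx were beyond -2 at 48h, as were 10% of all genes. The median change of the 6 at 48h was -1.50, beside -0.18 over all 16415 genes. Each of the 6 had a mean above 1 TPM over the 12 libraries. Among the 9331 genes with a mean of at least 1 TPM, the 48h median was -0.48. Of these 9331, 3885 were called lower at 48h and 1723 higher, so that falls were more common among abundant genes. H2afy2 and H1fx were not tested: H2afy2 was at most 0.12 TPM and H1fx was listed at 0 in all 12 libraries.

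**Figure D1:**
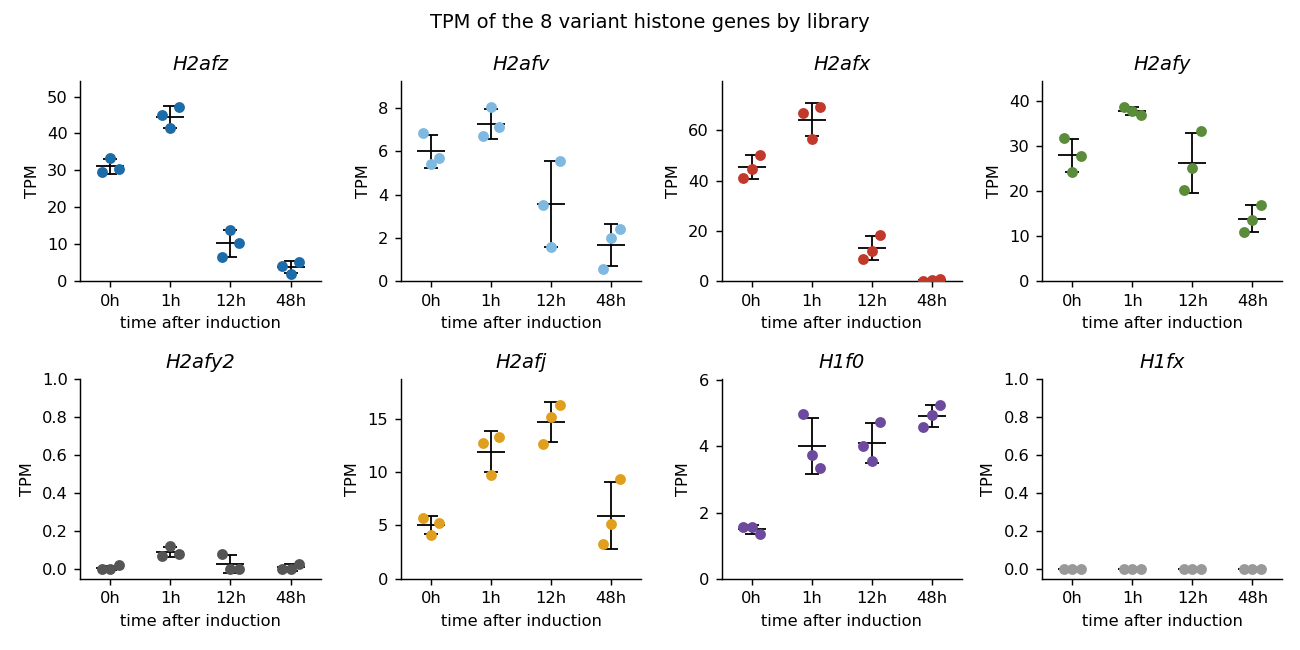
TPM of the 8 genes (vertical axes, linear, in TPM) at 0h, 1h, 12h and 48h (horizontal axes); each point is a library, bars are the mean and SD of 3 libraries. H2afx ends between 0.19 and 0.83 TPM at 48h, H1f0 lies above its 0h libraries at every later time, and H2afj is highest at 12h.

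H2afz (ENSMUSG00000037894, GRCm38 chr3:137864487-137866922, plus strand) encodes H2A.Z.1, the main H2A.Z protein of most cells. It stood at 29.7, 33.4 and 30.3 TPM at 0h, at 44.9, 41.4 and 47.1 TPM at 1h, at 6.58, 13.9 and 10.3 TPM at 12h and at 4.19, 1.95 and 5.19 TPM at 48h. All 1h libraries were above, and all 12h and 48h libraries below, the 0h libraries. The 1h difference did not pass the test in the model of all 12 libraries (log2 0.51 ± 0.33 SE, adjusted p = 0.274). That SE draws on the spread at all 4 time points. With only the 0h and 1h libraries fitted, the 1h rise was called (limma, adjusted p = 0.0211). In the 12-library model its sign turned after scaling (-0.15, adjusted p = 0.847). The gene changed by -1.66 ± 0.33 on the log2 scale at 12h (adjusted p = 0.00313) and by -3.12 ± 0.33 at 48h (adjusted p = 1.46e-05). The scaled changes were -1.99 and -2.72, both called.

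H2afv (ENSMUSG00000041126, chr11:6427229-6444443, minus strand) encodes H2A.Z.2, which differs from H2A.Z.1 at only a few residues. Its levels were 6.85, 5.43 and 5.69 TPM at 0h and 6.69, 8.04 and 7.10 TPM at 1h. They were 3.52, 1.59 and 5.56 TPM at 12h and 0.58, 2.01 and 2.43 TPM at 48h. The 0h libraries overlapped with those of 1h and 12h, and lay above all 48h libraries. H2afv fell by 1.98 ± 0.49 on the log2 scale at 48h (adjusted p = 0.00626, scaled change -1.60). At 12h the change was -0.89 ± 0.49 (adjusted p = 0.196), and -1.22 after scaling (adjusted p = 0.0578).

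The design also allowed the balance of both H2A.Z genes to be compared within a library, where scaling plays no part. The ratio of H2afv to H2afz TPM was 0.231, 0.163 and 0.188 at 0h and 0.149, 0.194 and 0.151 at 1h. It was 0.535, 0.114 and 0.542 at 12h and 0.138, 1.03 and 0.468 at 48h. The 12h and 48h libraries spread on both sides of the 0h range, so no shift larger than the spread between replicates was detectable. The mean log2 ratio at 48h minus that at 0h was 1.08, with an SD of 1.46 among the 48h libraries (exact permutation test, two-sided, p = 0.4, adjusted p = 0.4 over 3 tests). The differences at 1h and 12h were -0.23 (exact p = 0.3) and 0.74 (exact p = 0.4), and 0.1 is the smallest p that 3 libraries against 3 allow.

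H2A.Z is placed into nucleosomes by the SRCAP and TIP60-p400 complexes, listed here as 19 genes. Of these, 0 were higher and 11 lower at 48h, with a median change of -0.68, where 15.9% of all genes were higher and 27.2% lower. After scaling 2 were higher and 6 lower, against 24.5% and 22% of all genes, so that the lower share was not far from that of all genes. Srcap, the motor of its complex, went from 7.56, 6 and 5.97 TPM at 0h to 17.4, 16.9 and 17.8 TPM at 1h, a rise of 1.41 on the log2 scale (adjusted p = 0.000375) that was also called after scaling (0.75, adjusted p = 0.0056). At 48h it was lower with TPM as deposited (-0.53, adjusted p = 0.031) but not after scaling (-0.13, adjusted p = 0.476). Ep400 and Kat5, the motor and the acetyltransferase of TIP60-p400, behaved likewise at 48h, with -0.68 and -0.91 as deposited (adjusted p = 0.0193 and 0.0068) and -0.28 and -0.52 scaled (adjusted p = 0.297 and 0.0684). Znhit1 and Vps72, subunits that handle H2A.Z itself, were not called at 48h, with log2 changes of 0.05 and -0.55. Ruvbl2, an ATPase subunit shared with other complexes, changed most in the list and fell by 3.58 (adjusted p = 2.71e-05). Epc1, called higher at 48h only after scaling, changed most upward there (0.79, adjusted p = 0.0205).

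Of the 7 genes listed for H2A.Z removal, 2 were lower and 0 higher at 48h, with and without scaling, a share lower that is near the 27.2% (22% scaled) of all genes. Anp32e, a chaperone that takes H2A.Z out of nucleosomes, stood at 31.2, 22.9 and 25.4 TPM at 0h and at 3.82, 4.32 and 3.34 TPM at 48h, and fell by 2.75 ± 0.19 on the log2 scale (adjusted p = 4.96e-07). Its 12h libraries, at 21.4, 19.9 and 30.8 TPM, overlapped with those of 0h, and it was called lower at 12h only after scaling (-0.49, adjusted p = 0.0381). Ino80, the motor of the INO80 remodeller, was not called at 48h (-0.41, adjusted p = 0.193).

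H2afx (ENSMUSG00000049932, chr9:44334694-44336077, plus strand) showed the largest fall of the 6 tested members. It stood at 41.2, 44.8 and 50.3 TPM at 0h and at 66.9, 56.7 and 69.2 TPM at 1h. At 12h it was at 8.72, 12.2 and 18.2 TPM, and at 48h at 0.19, 0.43 and 0.83 TPM. No 2 time points overlapped. The rise in TPM at 1h did not pass the test in the model of all 12 libraries (log2 0.50 ± 0.37, adjusted p = 0.336) and turned to -0.16 after scaling. With only the 0h and 1h libraries fitted, as deposited, it was called (limma, adjusted p = 0.0346). H2afx changed by -1.85 ± 0.37 on the log2 scale at 12h (adjusted p = 0.00297) and by -6.44 ± 0.37 at 48h (adjusted p = 1.11e-07), with scaled changes of -2.19 and -6.13. Since 0.1 TPM was added before taking logs, the 48h change depends on that choice; it lay between -6.85 and -4.99 over the 23 alternatives tried.

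H2A.X acts as the platform of DNA break signalling, listed here as 17 genes. Of these, 14 were lower and 0 higher at 48h, and 12 were lower after scaling, where 27.2% and 22% of all genes were lower. Mdc1, which binds phosphorylated H2A.X, went from 5.31, 2.61 and 3.32 TPM at 0h to 0.68, 1.03 and 0.94 TPM at 48h (-1.92 ± 0.27, adjusted p = 0.000129). Brca1 changed most in the list, by -3.83 (adjusted p = 6.03e-05). The kinase gene Atm and the ubiquitin ligase gene Rnf8 were called lower with TPM as deposited (-1.31 and -0.97, adjusted p = 0.0288 and 0.0365) but not after scaling (-0.96 and -0.59, adjusted p = 0.0582 and 0.144). Rnf8 was higher at 1h as deposited (1.41, adjusted p = 0.0119), a call that was not made after scaling (0.76, adjusted p = 0.152).

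**Figure D2:**
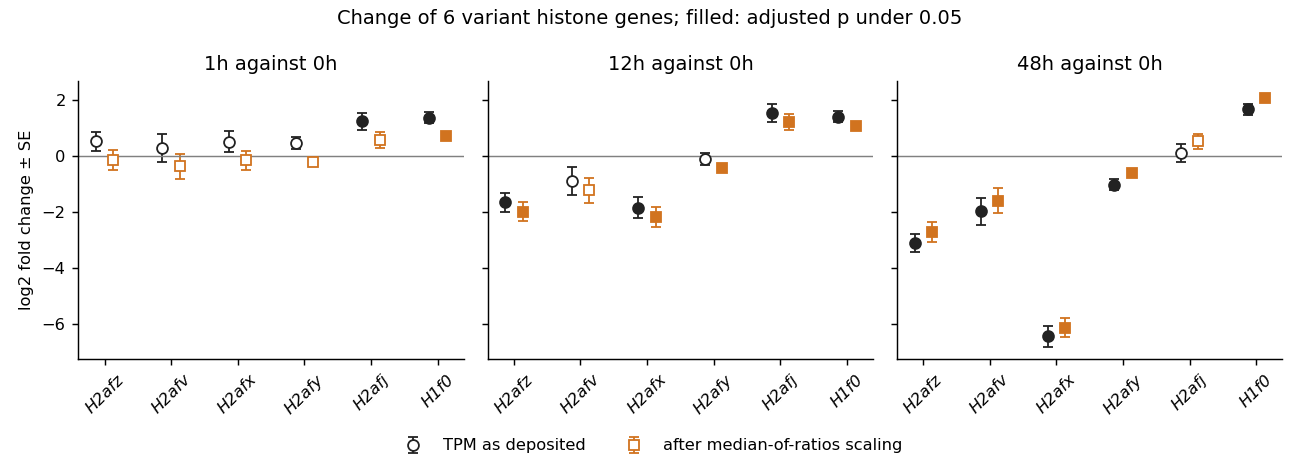
Change of the 6 tested genes against 0h (vertical axis, log2 fold change ± SE, 12 libraries in 1 limma model), with TPM as deposited in black circles and after median-of-ratios scaling in orange squares; filled marks have an adjusted p under 0.05. H2afz, H2afv, H2afx and H2afy lie above 0 at 1h as deposited and below 0 after scaling, without a call on either scale, whereas H1f0 is called higher in every panel on both.

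H2afy (ENSMUSG00000015937, chr13:56073619-56136361, minus strand) encodes macroH2A1. Its 8 annotated transcripts include both splice forms of the macro domain, which the gene-level TPM do not separate. It stood at 31.7, 24.2 and 27.7 TPM at 0h, at 38.6, 37.7 and 36.9 TPM at 1h, at 20.1, 24.97 and 33.4 TPM at 12h and at 10.95, 13.4 and 16.9 TPM at 48h. The 12h libraries overlapped with those of 0h, and the 48h libraries lay below all others. H2afy fell by 1.02 ± 0.21 on the log2 scale at 48h (adjusted p = 0.00199), and changed by -0.62 ± 0.15 after scaling (adjusted p = 0.00482). At 12h it was not called as deposited (-0.11, adjusted p = 0.731) but was lower after scaling (-0.45, adjusted p = 0.0377). An antisense gene, Gm47071, overlaps it, and without a stated strand setting in the counting the reads of both cannot be told apart. H2afy2 (ENSMUSG00000020086, chr10:61738665-61784147, minus strand), the macroH2A2 gene, lay between 0.07 and 0.12 TPM in the 1h libraries and between 0 and 0.08 TPM in all others. These levels are too low to test, and no ratio to H2afy was formed because H2afy2 was listed at 0 in 6 libraries. The protein-coding gene Aifm2 and the miRNA gene Mir5108 overlap H2afy2, and whether their reads enter its TPM was not tested.

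H2afj (ENSMUSG00000060032, chr6:136808244-136810074, plus strand) was the H2A member that rose, at 12h on both scales. It stood at 5.71, 4.14 and 5.24 TPM at 0h, at 12.7, 9.70 and 13.3 TPM at 1h, at 12.6, 15.2 and 16.3 TPM at 12h and at 3.23, 5.11 and 9.36 TPM at 48h. The 1h and 12h libraries lay above all 0h libraries, and the 48h libraries fell on both sides of them. H2afj rose by 1.53 ± 0.32 on the log2 scale at 12h (adjusted p = 0.00379, scaled 1.20, adjusted p = 0.00821). At 1h the rise of 1.22 ± 0.32 was called as deposited (adjusted p = 0.017) but not after scaling (0.57, adjusted p = 0.242). It was also lost without the second 0h library (adjusted p = 0.0625) or without the first 1h library (adjusted p = 0.058). At 48h the difference from 0h was 0.11 ± 0.32 (adjusted p = 0.829), and it became -0.29 without replicate 3 of 48h, the library with the lowest rRNA share of that time point.

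H1f0 (ENSMUSG00000096210, chr15:79028450-79030504, plus strand) rose at every time point. It stood at 1.57, 1.56 and 1.35 TPM at 0h, at 4.97, 3.73 and 3.36 TPM at 1h, at 4.03, 3.56 and 4.74 TPM at 12h and at 4.59, 4.95 and 5.26 TPM at 48h. All 9 induced libraries were above all 0h libraries, and the 3 induced time points overlapped with each other. The rise was 1.35 ± 0.19 on the log2 scale at 1h (adjusted p = 0.000736), 1.40 ± 0.19 at 12h (adjusted p = 0.000253) and 1.66 ± 0.19 at 48h (adjusted p = 2.76e-05). The scaled rises were 0.71 (adjusted p = 0.0097), 1.07 and 2.07. The antisense gene Gm49544 overlaps H1f0. H1fx (ENSMUSG00000044927, chr6:87980421-87981637, minus strand), the gene of the linker histone H1.10, was listed at 0 throughout. The antisense gene Gm5577 and the miRNA gene Gm47286 overlap it, and since TPM carry no read counts, a listed 0 does not show that the gene is silent.

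Between neighbouring time points, 2 of the 6 genes had fallen by 12h relative to 1h, H2afz (-2.17, adjusted p = 0.000843) and H2afx (-2.35, adjusted p = 0.000957), and 0 had risen. Of all genes, 15% were called lower and 6.98% higher. The same 2 were called after scaling, where 8.77% of all genes were lower and 11.3% higher. From 12h to 48h, 4 were lower as deposited, where 31.7% of all genes were lower and 4.1% higher. Of the 9331 genes with a mean of at least 1 TPM, 4875 were lower in this step and 436 higher. Among the 4 members, H2afx (-4.59, adjusted p = 5.8e-06) was also called after scaling (-3.94). H2afz (-1.46), H2afj (-1.42) and H2afy (-0.91) were not, with scaled changes of -0.73, -0.69 and -0.17 and adjusted p of 0.167, 0.114 and 0.477. H1f0 was not called from 12h to 48h as deposited (0.27, adjusted p = 0.316) but was higher after scaling (1.00, adjusted p = 0.00052), on a scale where 10.5% of all genes were higher and 11.9% lower.

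Within the order of levels, H2afx was the most abundant of the 8 at 0h, with a mean of 45.4 ± 4.60 TPM (SD, n = 3), ahead of H2afz at 31.1 ± 1.99 and H2afy at 27.9 ± 3.73 TPM. The ranges of H2afz and H2afy overlapped at 0h, as did those of H2afv and H2afj. At 48h H2afy led with 13.8 ± 3.01 TPM. H2afj at 5.90 ± 3.14, H1f0 at 4.93 ± 0.34 and H2afz at 3.78 ± 1.66 TPM overlapped with each other, and H2afx at 0.48 ± 0.32 TPM was last of the 6 tested genes, its range overlapping with that of H2afv at 1.67 ± 0.97 TPM. TPM are per transcript length, so that levels can be set side by side between genes.

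As a share of the summed TPM of the 6 H2A members in the same library, which no scaling of libraries can alter, H2afx took 39.3 ± 3.26% at 0h, 18.9 ± 2.57% at 12h and 1.75 ± 0.71% at 48h. H2afy went from 24.1 ± 3.05% to 38.6 ± 1.56% and 54.8 ± 5.35%, although its own TPM fell. H2afj took 4.35 ± 0.63% at 0h and 7.15 ± 0.73% at 1h, then 22.1 ± 2.48% at 12h and 22.0 ± 5.02% at 48h. H2afz took 27.0 ± 2.44% before induction, 15.2 ± 4.64% at 12h and 15.1 ± 6.70% at 48h. H2afv stayed between 2.35 and 8.76% in all libraries, with 0h libraries inside that range. For H2afz, H2afx, H2afy and H2afj, no library of 12h or 48h overlapped with those of 0h.

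**Figure D3:**
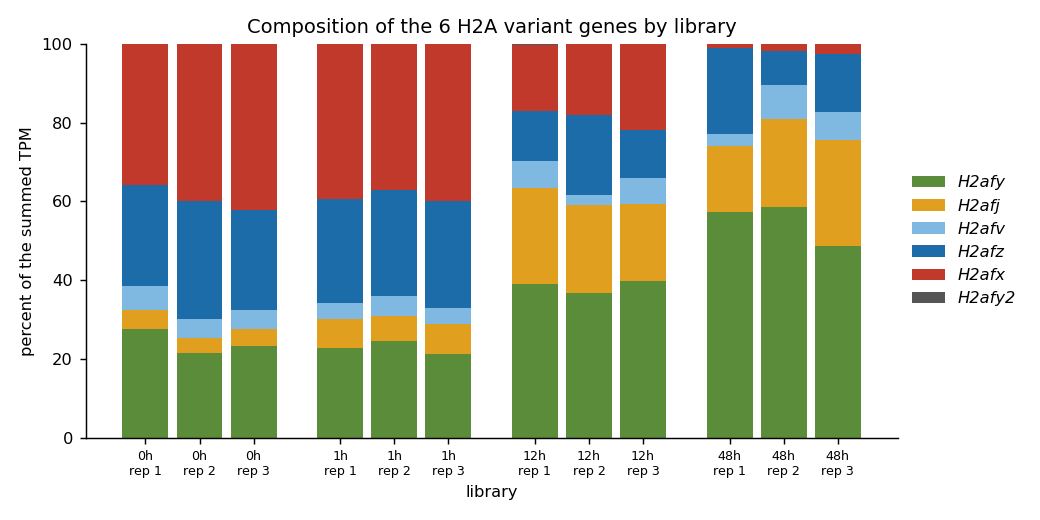
Share of each H2A variant gene (vertical axis, percent) in the summed TPM of the 6 genes, for each of the 12 libraries (bars). The H2afx segment shrinks from 35.8 to 42.2% at 0h to 0.99 to 2.39% at 48h, while H2afy takes 48.7 to 58.6% of the bar at 48h.

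The canonical genes of both families were taken as the reference for the variants. All 5 canonical H1 genes were lower at 48h, where 27.2% of all genes were, with a median change of -3.30, and 5 of 5 were already lower at 12h, where 7.82% of all genes were. Hist1h1b fell most, from 79.8, 77.3 and 77.2 TPM at 0h to 0.92, 0.56 and 1.83 TPM at 48h (-6.16 ± 0.32, adjusted p = 5.64e-08). Hist1h1c fell least of the 5, from 48.9, 54.9 and 48.3 TPM to 7.54, 11.2 and 20.9 TPM (-2.06 ± 0.31, adjusted p = 0.00022). Of 18 canonical H2A genes tested, 17 were lower at 48h, against the same 27.2% of all genes, with a median change of -5.16, led by Hist1h2af, which had 83.2, 84.4 and 95.97 TPM before induction and a listed value of 0 in every 48h library. Hist1h2ao was called higher, at 2.47, 0.56 and 0 TPM at 48h and listed at 0 in the other 9. Canonical H2A genes are near-identical copies, so that the split of reads among them is uncertain. The 48h change of H2afx (-6.44) lay beyond the median of the canonical H2A genes, and those of H2afz (-3.12), H2afv (-1.98) and H2afy (-1.02) were smaller than it.

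Summed over the 19 listed genes, canonical H2A had 1626 ± 76.1 TPM before induction, 453 ± 63.8 TPM at 12h and 56.2 ± 18.9 TPM at 48h. The 6 H2A variants had 115 ± 3.63, 67.7 ± 16.04 and 25.6 ± 8.16 TPM at the same times. The variant share of the H2A TPM, variant and listed canonical genes together, averaged 6.63 ± 0.15% at 0h and 8.13 ± 0.32% at 1h, then 12.9 ± 1.17% at 12h and 31.4 ± 0.65% at 48h, without overlap between time points. The list leaves out Hist1h2aj, another canonical copy, which lay between 0 and 69.2 TPM with wide spread among replicates. With it the canonical sum was 1654 ± 60.9 TPM at 0h and 59.8 ± 24.9 TPM at 48h, and the variant share was 6.53 ± 0.20%, 8.06 ± 0.39%, 12.2 ± 0.80% and 30.5 ± 1.95% at the 4 time points, again without overlap. For H1, the canonical sum went from 337 ± 4.73 to 28.2 ± 11.4 TPM at 48h while the variant sum, all of it H1f0, went from 1.49 ± 0.12 to 4.93 ± 0.34 TPM. The H1f0 share of the TPM of H1f0 and the 5 canonical H1 genes averaged 0.44 ± 0.03% at 0h and 1.02 ± 0.18% at 1h, then 4.31 ± 0.63% at 12h and 15.9 ± 4.05% at 48h, again without overlap. The 48h share ranged from 11.3% in replicate 3 to 19.1% in replicate 1. These shares were not tested, being sums over chosen genes.

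**Figure D4:**
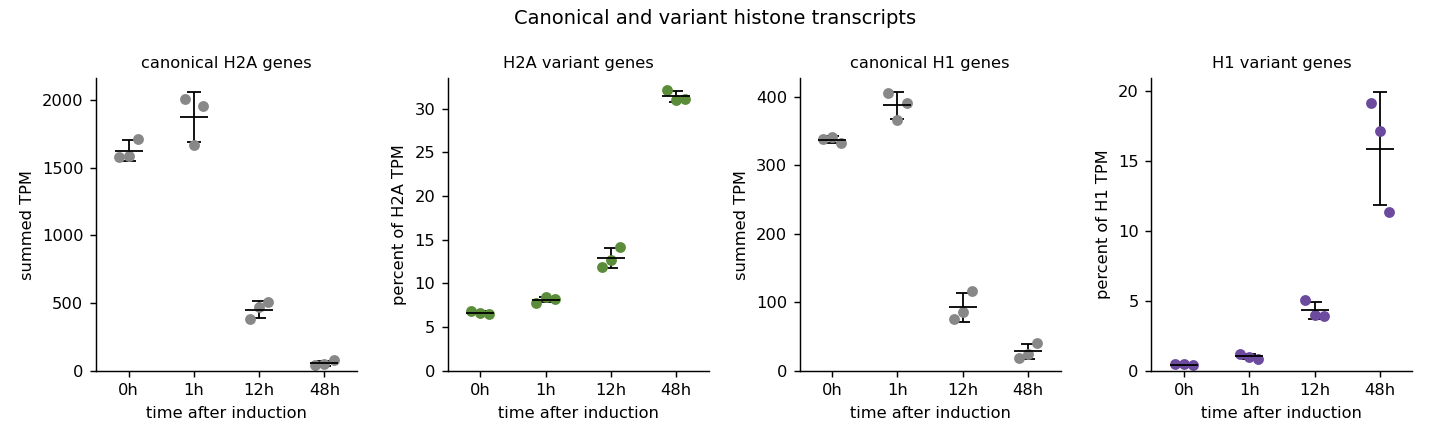
Summed TPM of the canonical H2A and H1 genes (grey) and the percent of the TPM of the listed canonical and variant H2A or H1 genes that came from the variant genes (coloured), against time; points are libraries, bars the mean and SD of 3. The H2A variant share reaches 31.0 to 32.2% and the H1 variant share 11.3 to 19.1% at 48h, as the canonical sums drop to 40.4 to 77.2 and 19.4 to 41.1 TPM.

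Chaperones and proliferation genes were counted beside the variants. Of 10 chaperones of H2A-H2B and H1, 9 were lower at 48h on both scales, where 27.2% (22% scaled) of all genes were lower. Atrx, which is also linked to macroH2A, was not called as deposited (0.32, adjusted p = 0.303) but higher after scaling (0.73, adjusted p = 0.00893). Set fell most, from 68.6, 67.7 and 82.1 TPM at 0h to 4.28, 5.28 and 9.82 TPM at 48h (-3.56, adjusted p = 8.46e-07). Nap1l1, an importer and chaperone of H2A-H2B, changed by -2.66, Nasp, a chaperone of H1 and H3, by -3.26, and Supt16 and Ssrp1, the subunits of FACT, by -2.0 and -2.62 on the log2 scale. All 15 proliferation genes were lower at 48h on both scales, against those same shares of all genes, with Cdk1 lowest (-6.98), Top2a at -6.31, Mki67 at -6.01 and Pcna at -3.34. Their part in the fall of H2afx and H2afz was not tested.

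The genes most like each member were sought among 8365 named genes with a mean of at least 1 TPM, by Pearson's r over the 12 scaled libraries. These libraries fall into 4 time points, so that r mainly compares 4 levels. Most like H2afx were Hist2h2bb (r = 0.997) and Hist1h2bl (r = 0.996), canonical H2B genes. Trim28 (0.984) and Nol6 (0.980) were most like H2afz, Cd200 (0.950) and Gpank1 (0.935) most like H2afv, and Uqcrfs1 (0.962) and Mrpl36 (0.957) most like H2afy. H2afj was closest to Pgs1 (0.946) and Zbtb7a (0.909), and H1f0 to Fcgr2b (0.982), an inhibitory Fc receptor gene, and Sntb2 (0.980). Among the members, H2afx and H2afz had r = 0.881, H2afx and H1f0 r = -0.929, and H2afj lay between -0.369 and 0.336 with the other 5.

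Promoter Capture Hi-C reads which DNA fragments touch a captured promoter fragment, here called a bait. Over all 18175 baits listed at any time, the median was 4 interactions at each time point, with quartiles of 1 and 12 at 0h. The H2afx fragment had 37, 33, 23 and 21 listed interactions at the 4 time points in order. It also holds a start site of Vps11, so that these contacts cannot be given to H2afx alone. The H2afv fragment (chr11:6442174-6445145), which holds no other start site, had 30, 39, 33 and 31. H2afj had 13, 15, 9 and 15, and H2afy 6, 6, 6 and 7. H2afz, whose fragment (chr3:137863832-137869444) also holds a start site of Dnajb14, had 9, 10, 9 and 11. Each list was made from merged replicates, so there is no replicate error and differences between time points were not tested. The 0h list gives CHiCAGO scores, and the later lists give whole numbers of an unnamed unit. Whether all 4 lists share 1 cut-off cannot be checked from them.

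H1fx, listed at 0 TPM, had 0 interactions at 0h and 3, 4 and 4 later, and H2afy2 had 1, at 1h. The H1f0 fragment was not a bait in any list and appeared once, at 12h, as the other end of a contact 118 kb away. Of all contacts seen at any time, 23 of 43 were listed at all 4 time points for H2afv, 15 of 48 for H2afx, 6 of 27 for H2afj, 4 of 18 for H2afz and 2 of 11 for H2afy. The share of all listed contacts kept at all 4 time points was not computed. These counts therefore do not show whether a member kept more or fewer contacts than other promoters. Contacts of H2afv listed at all 4 time points included fragments with start sites of Myo1g (80.4 kb away, score 21.5 at 0h) and Ccm2. H2afz kept a run of 3 neighbouring fragments 276 to 281 kb away with start sites of Mttp and Trmt10a (scores of 17.5 to 32.4 at 0h). H2afj kept contacts with fragments of Wbp11, Arhgdib and Pde6h, H2afy with one of Tifab, and the H2afx fragment with those of Cbl, Hyou1 and Hinfp, a gene for a factor that acts on histone H4 promoters.

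**Figure D5:**
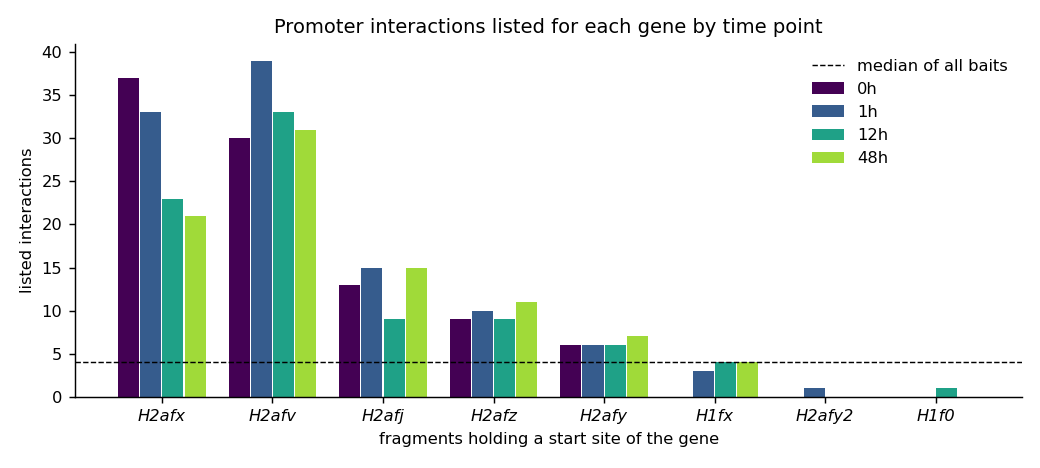
Number of interactions listed for the fragments that hold a start site of each gene (vertical axis) at 0h, 1h, 12h and 48h (bars, 1 merged list each); the dashed line is the median of 4 over all baits. The H2afx fragment goes from 37 to 21 listed interactions, whereas H2afv, H2afj, H2afz and H2afy end within 2 of their 0h number. The values in the 0h list and in the later lists have unlike units, and differences were not tested.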

How the data were processed

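RNA-seq of 12 C10 libraries (4 time points, 3 biological replicates) was deposited by the authors as TPM per gene: reads of rRNA-depleted total RNA were trimmed with Trim Galore 0.6.2, aligned with HISAT2 2.1.0 to mm10 and quantified with RSEM (version not given in the sources used here), technical replicates being merged. TPM hold no read depth, so no counting interval can be given. The deposited promoter Capture Hi-C lists (HiCUP, CHiCAGO, 2 replicates merged) give a CHiCAGO score of at least 5 at 0h and whole numbers of an unnamed unit, from 2 upwards, at the other times; only the 0h scores were used. Hi-C files were not used.

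The 8 members and all gene lists were chosen with earlier results of these data known. Genes with a mean of at least 0.1 TPM were fitted with limma 3.58.1 (R 4.3.3) on log2(TPM + 0.1) in 1 model of 4 time points, with a mean-variance trend and Benjamini-Hochberg adjustment; a call is an adjusted p under 0.05. The script was tested on simulated data. The H2afv to H2afz ratio was tested by exact permutation. Named genes are the 8 members, the most changed called gene in each direction at 48h of each list with its defining members, and the 2 genes most like each member. Positions come from GENCODE M21 (GRCm38), to which all 55450 gene identifiers matched. Interactions were assigned to a member when a fragment held 1 of its start sites, each pair being counted once. Alternatives were 3 other scalings, 2 pseudocounts, 2 filters, no trend, only the libraries compared, a replicate block and leaving out each library; median-of-ratios scaling with a library left out and the H2A share with Hist1h2aj were added after seeing the data. Whether same-numbered libraries deviate together was checked, and they did so in 7 of 18 pairs (r over 0.1), against 1 of 36 pairs with different numbers.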

Additional observations from a re-analysis of the deposited data

How the results depend on the processing

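The falls of H2afz, H2afv, H2afx and H2afy at 48h, those of H2afz and H2afx at 12h, the rise of H2afj at 12h and the rises of H1f0 at 1h, 12h and 48h were called in each of the 23 alternatives run for each of them. The number of members called higher at 1h was 1 in place of 2 after median-of-ratios scaling, rescaling without the 20 most abundant genes, quantile normalization, or the replicate block with scaling, and 5 when only the 6 libraries of 0h and 1h were fitted, where H2afz (adjusted p = 0.0211), H2afx (0.0346) and H2afy (0.0474) were called higher as well. With 1 library left out, as deposited or scaled, it was 1 to 2; the number lower at 12h was 2 to 4, and the number higher at 48h 1 to 2. The 4 lower at 12h arose after scaling without replicate 3 of 12h, and the second higher at 48h, H2afj (adjusted p = 0.0272), after scaling without replicate 1 of 48h.

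In the model of all 12 libraries, the 1h changes of 4 members were called neither as deposited nor after median-of-ratios scaling. They turned negative after that scaling, with the same values under the replicate block: H2afy -0.22, H2afz -0.15, H2afv -0.37 and H2afx -0.16. Without the 20 most abundant genes H2afy was at -0.046 and H2afv at -0.20, and after quantile normalization at -0.018 and -0.28. With 1 library left out, as deposited or scaled, the 1h changes spanned -0.31 to 0.54 for H2afy, -0.27 to 0.57 for H2afz, -0.44 to 0.38 for H2afv and -0.32 to 0.59 for H2afx. Changes that were not called with TPM as deposited also crossed 0 over the 23 alternatives for H2afy at 12h (-0.56 to 0.060, called in 4), H2afj at 48h (-0.29 to 0.82, called in 1), H1f0 from 1h to 12h (-0.075 to 0.47, called in 0) and H2afv from 12h to 48h (-1.56 to 0.16, called in 2). The H2afv to H2afz ratio kept its direction, with differences at 48h of 0.41 without replicate 2 to 1.86 without replicate 1. Adding Hist1h2aj to the canonical genes, chosen after seeing the data, gave an H2A variant share of 30.5% at 48h. Limiting the 0h interactions to scores of at least 10 left 22 of 95 for the members.

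Same-numbered libraries deviated together in 7 of 18 pairs (r over 0.1, range -0.01 to 0.26, median 0.07), against 1 of 36 pairs with different numbers (median -0.05). Of these 7, 5 were among the 6 pairs of replicate 3 libraries, which thus stood somewhat apart from replicates 1 and 2. Of all 12 libraries, 7 correlated best with one of their own number. Same-numbered libraries thus deviated together more often than others. The main model still did not take the numbers as pairs, since the study's methods name no block. The replicate block with TPM as deposited changed no count of members called at any time point (2 up at 1h, 2 up and 2 down at 12h, 1 up and 4 down at 48h). For the ratio at 48h, the exact test over sign flips of the 3 paired differences gave p = 0.5, where 0.25 is the smallest possible. The H2afy2 to H2afy ratio could not be formed. TPM carry no read depth, so the counting error of low values such as H2afx at 48h is unknown.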
